A study of Rattus norvegicus with 6 samples.

Results

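The cytosolic ribosomal protein genes were examined in total RNA-seq of INS-1(832/13)::mCherry, a rat insulinoma β-cell line that carries a fluorescent insulin reporter. They were taken by name, as every gene called Rpl or Rps followed by a number together with Rpsa, Rplp0, Rplp1 and Rplp2, with a mean normalized count of at least 50 over the 6 lines. This rule uses no difference between the groups. It found 84 gene rows with 79 different names among 32900 rows in all, 49 for the large and 35 for the small subunit. A normalized count here is the read count of a gene divided by a size factor of its library.

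The series compared 3 control lines (5-9, 2 and 16), which lack the Prader-Willi syndrome (PWS) imprinted domain on the silent maternal allele, with 3 PWS lines (3, 19-1 and 19-4), which lack it on both alleles. All were edited, clonal lines grown in 7.5 mM glucose, and each gave 1 library. Lines 2, 16, 3 and 19 were all derived from line 5-9, and 19-1 and 19-4 are subclones of line 19, so that the 3 PWS lines stand for 2 clones. Line 3 has a larger deletion with a different breakpoint on one side. The p-values therefore measure the spread between clonal lines with 1 culture each.

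Counted reads per line ran from 26016478 in line 19-1 to 36084261 in line 2. Snurf, in the deleted domain, had 3442 to 4205 reads in the control lines and 6 reads in the 3 PWS lines together, in the order the labels give. The summed normalized count of 14 β-cell markers was 537478 to 607592 in control and 293952 to 506948 in PWS lines. Ins1 and Iapp made up most of this sum, and over the 14 markers the median log2 fold change was -0.096, -0.15 without line 19-1, with 4 higher in PWS, 10 lower, 2 of them without overlap (14.3%, beside 9.01% of tested genes), none called in limma and 3 with an unadjusted p under 0.05 (21.4%, beside 11.3% of tested genes). Markers of the other islet cells summed to 5.5 to 27.5 in control and 21.4 to 125 in PWS lines, with Sst and Irx2 at 0, and 13 non-endocrine markers to 43.1 to 52.2 and 49.0 to 57.4, with 6 of them, Ptprc and Cdh5 included, at 0. Fewer cells of a type and less RNA per cell cannot be told apart in such bulk RNA.

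The cytosolic ribosome is built from rRNA and a set of proteins that are needed in near equal numbers, and each of these proteins is usually encoded by a single active gene among many processed pseudogenes. Most of their mRNAs begin with a run of pyrimidines, the 5′ terminal oligopyrimidine (TOP) tract, through which mTORC1 and LARP1 set their translation. A β-cell makes very large amounts of insulin and depends on this machinery for it. Some of the proteins also act outside the ribosome, as RPL5 and RPL11 do when they bind MDM2 and so release p53.

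The TOP start could be seen in the rat promoters. RefSeq windows on the GRCr8 build, of 250 bases before to 50 after each annotated start, were available for 60 of the 79 names, with 61 windows. The 60 bases around the start are printed for the P-stalk genes Rplp0 and Rplp1 and for Rps2, which show the tract, and for Rps6 and Rpl21, which had no such run near the annotated start and whose values are described below. The capitals mark a run of 5 or more C or T that holds a C and comes within 5 bases of the start, which lies after base 40.
Rplp0, chr12:46718371-46718430, minus strand: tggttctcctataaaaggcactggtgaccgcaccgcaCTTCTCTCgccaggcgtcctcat
Rplp1, chr8:71290853-71290912, minus strand: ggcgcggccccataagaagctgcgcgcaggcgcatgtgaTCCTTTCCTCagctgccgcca
Rps2, chr10:14251808-14251867, plus strand: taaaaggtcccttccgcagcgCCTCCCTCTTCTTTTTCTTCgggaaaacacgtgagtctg
Rps6, chr5:106420521-106420580, minus strand: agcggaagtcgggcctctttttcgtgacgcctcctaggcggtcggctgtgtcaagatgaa
Rpl21, chr12:13386134-13386193, minus strand: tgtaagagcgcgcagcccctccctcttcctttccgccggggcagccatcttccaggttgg

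Such a run, of 8 bases in Rplp0, 10 in Rplp1 and 20 in Rps2, was found in 41 of the 61 ribosomal protein windows (67.2%), against 30.3% of all 33469 windows and 35.5% of 62 windows of mitochondrial ribosomal protein genes. A C exactly at the annotated start followed by at least 4 pyrimidines was found in 32.8% of them, against 2.63% of all windows and 3.23% of the mitochondrial set. The letters CCGGAA, the core that ETS factors such as GABP bind, stood on either strand in 49.2% of the ribosomal protein windows, in 53.2% of the mitochondrial ones and in 15.0% of all. TATAAA was in 9.84% of the ribosomal protein windows and in 14.2% of all. These shares describe letters in a window and depend on where the annotation puts the start, as the Rps6 and Rpl21 windows show, where runs of pyrimidines lie further upstream.

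Ribosomal protein mRNAs stood at closely similar levels in control and PWS lines. No member passed an adjusted p of 0.05 in limma, edgeR's quasi-likelihood test or DESeq2, where these call 0.257%, 0.205% and 1.46% of the 15579 genes tested. No member had an unadjusted p under 0.05 in any of the 3 tests either, against 11.3%, 11.4% and 10.4% of all tested genes. The smallest p in limma was 0.0853 for Rpl7 (adjusted p = 0.508, Benjamini-Hochberg). The log2 fold changes, always PWS minus control on the log2(normalized count + 1) scale, ran from -0.29 for Rps6 to 0.14 for Rpl36a, with a median of -0.023 over the members and -0.0028 over all tested genes. Rpl36a, with 3.35% of its reads unique, had 0.02 without line 2, its lowest line. Averages were higher in PWS for 26 members and lower for 58.

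The intervals were narrow enough to bound these differences. The 95% interval of the log2 fold change lay within ±0.5 for 82 of the 84 members, against 59.1% of all tested genes. The exceptions were Rps6 (-0.70 to 0.13) and Rps20 (-0.61 to 0.08). A log2 fold change above 0.2 in size was seen in 3 members (3.57%) and in 31.7% of the tested genes. These shares, and those of unadjusted p above, are set against all tested genes and were not matched for abundance. A mean of at least 5000 was reached by 73 of the 84 members and by 914 other tested genes. The 49 large-subunit rows had a median of -0.025 with 36 lower in PWS, and the 35 small-subunit rows a median of -0.023 with 22 lower.

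**Figure D1:**
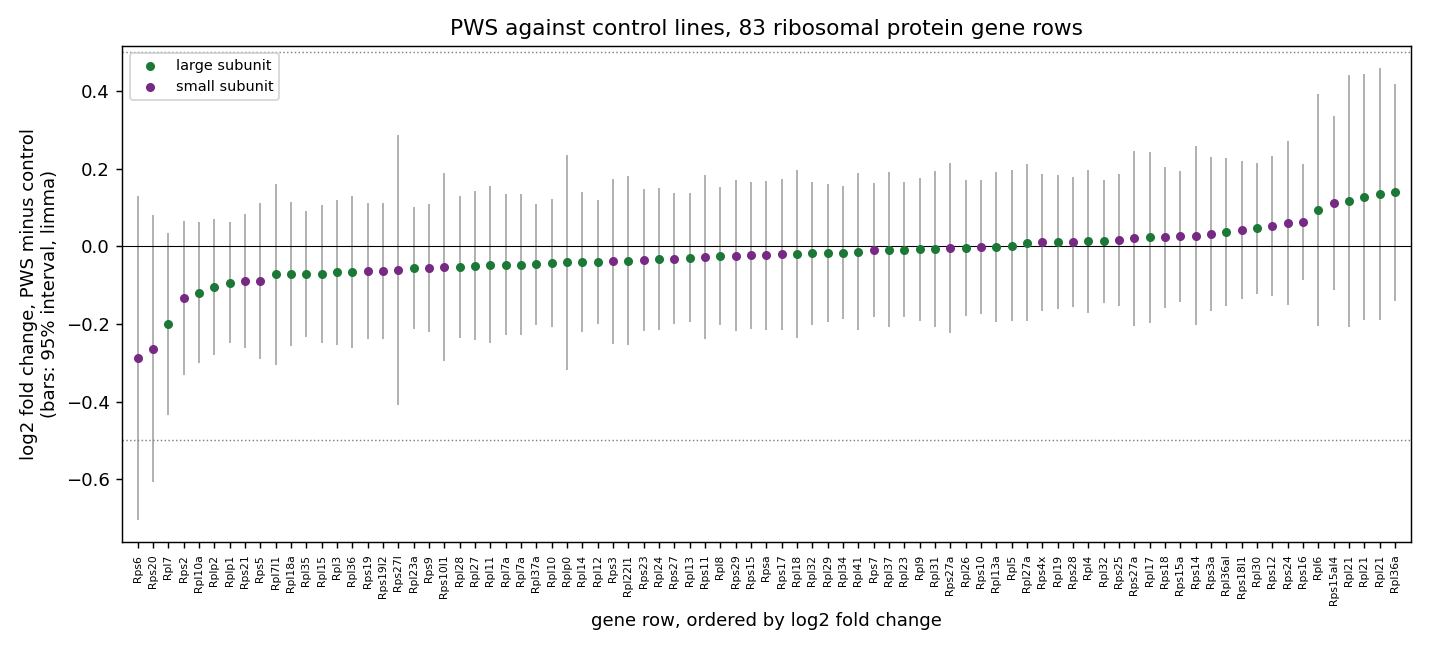
Log2 fold change of 83 of the 84 ribosomal protein gene rows, PWS minus control, ordered by size, with the 95% interval from limma as a bar (3 lines per group). Green points are large-subunit and purple points small-subunit genes, and the dotted lines mark ±0.5. The interval of every row drawn includes 0, and only those of Rps6 and Rps20 pass -0.5.

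The members also varied little between lines of the same group. Their median standard deviation within a group was 0.088 on the log2 scale, against 0.152 for all tested genes. Counting noise is smaller for abundant genes, so the comparison was repeated at a mean of at least 5000, where 73 members had a median of 0.087 and 914 other genes one of 0.103.

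Control and PWS values did not overlap for 3 members (3.57%), all lower in PWS, where 17.4% of the tested genes separated, 9.01% in that direction and 8.43% in the other. Rps2, a protein at the mRNA entry of the small subunit, had 40814, 40928 and 41414 normalized counts in lines 5-9, 2 and 16, and 39922, 34235 and 38282 in lines 3, 19-1 and 19-4. Line 3 lay close under the control lines and line 19-1 far below them (log2 fold change -0.13 ± 0.09 SE, adjusted p = 0.598 in limma). Rplp1, an acidic protein of the P stalk that recruits the translational GTPases, had 15839, 15669 and 15560 in control lines, and 15545, 14347 and 14263 in PWS lines. The gap between line 16 and line 3 was thus very small (-0.09 ± 0.07 SE, adjusted p = 0.646). The third was Rpl7, described with its chromosome below. The count depended on the lines: without line 3 it was 16, all lower (19.0%, beside 15.7% of tested genes), and without line 19-1 it was 10 higher (11.9%, beside 12.3%) and 3 lower (3.57%, beside 13.2%).

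All the members together took 4.11 ± 0.169% of the counted reads in control and 4.18 ± 0.293% in PWS lines (SD, n = 3 each). The share was 4.30, 3.99 and 4.03% in lines 5-9, 2 and 16, and 4.14, 3.91 and 4.49% in lines 3, 19-1 and 19-4, so that both extremes were PWS lines. The difference of 0.0732 percentage points did not pass an exact two-sided permutation test (p = 0.7, where 3 against 3 lines cannot give less than 0.1). With reads of several genes left uncounted the difference was -0.0304 (exact permutation p = 0.9), and with RSEM values -0.0132 (exact permutation p = 1.0).

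The lines differed more than the groups did. Set against the mean of the control lines, the median of the 84 members was 0.048 in line 5-9, -0.048 in line 2 and -0.006 in line 16, and 0.027 in line 3, -0.133 in line 19-1 and 0.042 in line 19-4, on the log2 scale. The median of all tested genes was within 0.0035 of 0 in every line, where the division by size factors sets it by design. Line 19-1 was the lowest of the 6 lines for 59 of the 84 members, and its sister subclone 19-4 was the highest for 29. Line 19-1 also had the fewest reads, and the part of depth in this was not tested. Without line 19-1 the median fold change of the members was 0.032 in place of -0.023, so that its sign depended on 1 line. Scaled to the total of counted reads, the median of the members was 0.029 and that of all tested genes 0.049. The members thus stood below all tested genes under both scalings (-0.023 against -0.0028 in the main run).

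**Figure D2:**
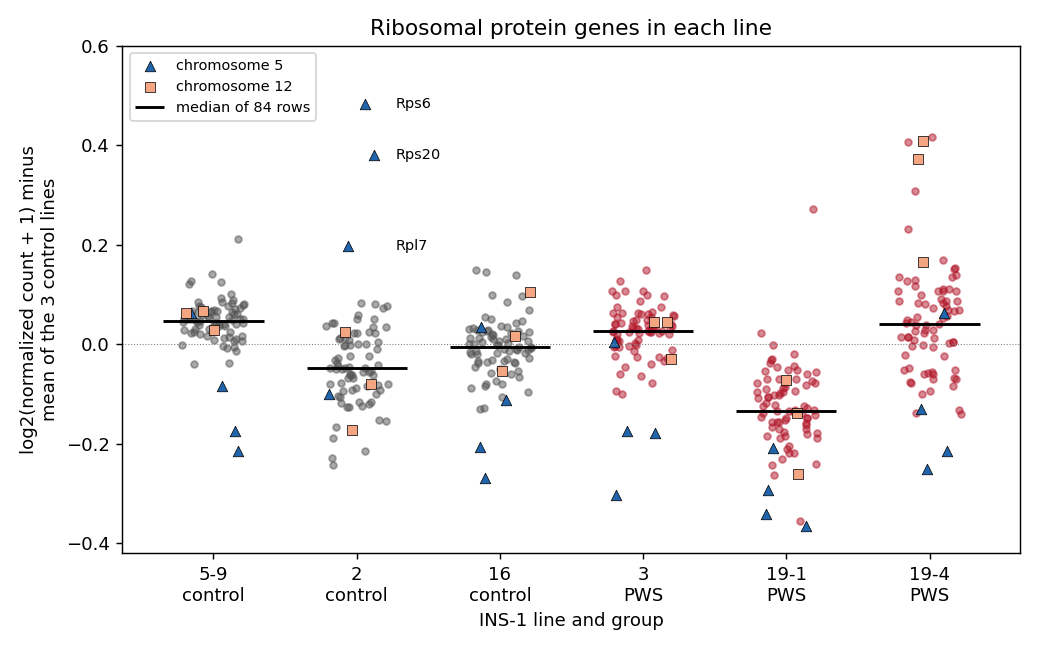
Each point is 1 of 83 ribosomal protein gene rows in 1 line, as log2(normalized count + 1) minus the mean of the 3 control lines (control grey, PWS red), with triangles for members placed on chromosome 5, squares for chromosome 12 and a bar at the median of the 84 rows. The bar of line 19-1 lies at -0.133, 3 triangles stand above the rest in line 2, and the 3 squares are high in line 19-4.

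Genes with a pattern like that of the family were found by Pearson's r over the 6 lines, as a description. It was taken between their log2 values and the mean of the members, each member standardized. Among the members, r was above 0.8 for 34, the median was 0.751, and Rps6 and Rpl36a were the only ones below 0. Outside the family the closest patterns were those of Polr2c, a subunit of RNA polymerase II (r = 0.992), the small nucleolar RNA Snord110 (0.989) and 7SK, a small nuclear RNA (0.984). Polr2c had 1898, 1744 and 1793 normalized counts in lines 5-9, 2 and 16, and 1875, 1617 and 1852 in lines 3, 19-1 and 19-4, and was thus lowest in line 19-1. Snord110 was read far less, at 34.7 to 53.2, and 7SK at no more than 18.0.

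The members with the most negative fold changes shared a chromosome and a line. On GRCr8, Rpl7, Rps20 and Rps6 lie on chromosome 5, and each was highest in control line 2. Rps6, the small-subunit protein that S6 kinases phosphorylate downstream of mTORC1, had 17691, 28706 and 17046 normalized counts in lines 5-9, 2 and 16, and 16644, 16203 and 17684 in lines 3, 19-1 and 19-4. Line 2 was 1.68 times the mean of the other 5 lines, which lay close together and overlapped between the groups. Its fold change was -0.29 ± 0.18 SE (adjusted p = 0.590, limma), and -0.04 without line 2. A share of 0.003% of the Rps6 reads matched its row alone, so that nearly all were shared with other rows.

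Rps20, a protein of the small-subunit head, had 8743, 12846 and 8545 normalized counts in lines 5-9, 2 and 16, and 8736, 7658 and 8288 in lines 3, 19-1 and 19-4. Line 2 was 1.53 times the other lines, and 94.3% of this gene's reads matched no other gene. The fold change was -0.26 ± 0.15 SE (adjusted p = 0.549, limma), and -0.07 without line 2. Rpl7, a large-subunit protein, had 28362, 34478 and 27817 in the control lines, and 26565, 24562 and 27484 in the PWS lines. Its groups did not overlap, line 2 was again highest, and the fold change moved from -0.20 ± 0.10 SE (adjusted p = 0.508) to -0.10 without that line.

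Rpl11, also on chromosome 5, did not follow. Its mRNA, for a protein that with RPL5 carries 5S rRNA and binds MDM2, had 8413, 7513 and 8252 normalized counts in lines 5-9, 2 and 16, and 8071, 6969 and 8406 in lines 3, 19-1 and 19-4. Line 2 was below the mean of the other lines by 0.09 on the log2 scale. The 50 tested genes nearest to Rpl11 on the chromosome had a median of -0.013 in line 2.

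The same split was seen in the other genes of the chromosome. Over the 829 tested genes of chromosome 5 that are no members, line 2 stood above the other 5 lines by a median of 0.36 on the log2 scale, and it was the highest line for 66.1% of them. On the other 20 chromosomes the median in line 2 lay between -0.076 and 0.047, and 23.2% of genes were highest in it. In 16 blocks of 51 or 52 genes along chromosome 5, the first 12 blocks had medians of 0.35 to 0.59 and the last 4 had -0.015 to 0.022. Rpl7, Rps20 and Rps6 lie among the first 12 blocks and Rpl11 among the last 4. The nearest genes had a median of 0.35 around Rpl7 (31 genes), 0.36 around Rps20 and 0.65 around Rps6 (50 genes each), where the members themselves stood 0.36, 0.62 and 0.75 above the other lines. DNA of these lines was not analysed here, and the cause was not tested.

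Members on chromosome 12 were highest in PWS line 19-4. Rpl21, a large-subunit protein, had 36644, 31007 and 37607 normalized counts in lines 5-9, 2 and 16, and 36042, 33259 and 46430 in lines 3, 19-1 and 19-4. Rpl6, also of the large subunit, had 39304, 35562 and 38056 in control and 38787, 34163 and 48689 in PWS lines. Rplp0, the base of the P stalk, had 68160, 67959 and 64357 in control and 65467, 55743 and 74923 in PWS lines. Line 19-4 exceeded the mean of the other lines 1.33-fold for Rpl21, 1.31-fold for Rpl6 and 1.16-fold for Rplp0, while line 19-1, from the same clone, was at or near the bottom for each. Their fold changes between the groups were 0.13 ± 0.14, 0.09 ± 0.13 and -0.04 ± 0.12 SE, and without line 19-4 they were -0.01, -0.05 and -0.15.

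Over the 418 other tested genes of chromosome 12, line 19-4 stood above the other lines by a median of 0.29 and was the highest line for 72.7%, against medians of -0.071 to 0.017 on the other 20 chromosomes and 16.0% of their genes. All 8 blocks along the chromosome had medians of 0.25 to 0.34. Genes around Rpl21, Rpl6 and Rplp0 had medians of 0.35, 0.20 and 0.27, beside 0.41, 0.39 and 0.22 for the members. The non-members of chromosome 5 had a median fold change between the groups of -0.11, and those of chromosome 12 of 0.086. The 78 members that could be placed lie on 19 chromosomes, and without the 8 on chromosomes 5 and 12 the fold changes of the family ran from -0.13 to 0.14, again for Rpl36a, with a median of -0.020.

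**Figure D3:**
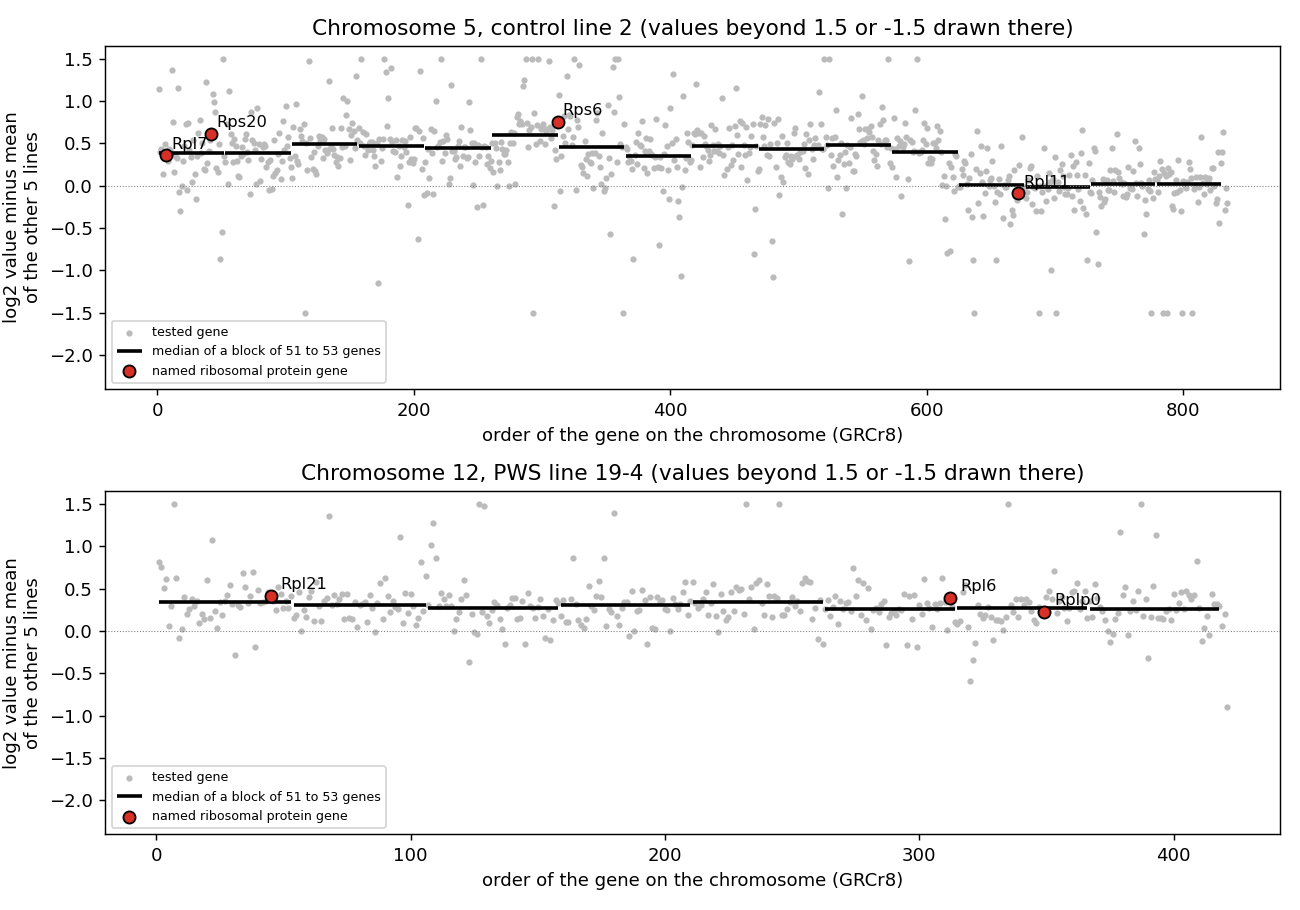
Tested genes in their order along chromosome 5 (control line 2, top) and chromosome 12 (PWS line 19-4, bottom), as the log2 value of that line minus the mean of the other 5 lines (grey), with block medians as black bars and the ribosomal protein genes named in the text in red. In line 2 the block medians are 0.35 to 0.59 over the first 12 blocks and near 0 over the last 4, where Rpl11 lies, and in line 19-4 they are 0.25 to 0.34 throughout.

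The remaining roles were described by their own genes. In the P stalk, Rplp2 had a fold change of -0.10 ± 0.08 SE, -0.06 without line 2, its highest line, and -0.015 with RSEM. Of its reads 0.019% were unique. Together with Rplp0 and Rplp1, the median of the 3 genes, all lower on average, was -0.093. Rpl5, the partner of Rpl11, had 30495, 27519 and 29463 normalized counts in control and 29562, 27129 and 30948 in PWS lines. Its groups overlapped fully (fold change 0.00, 95% interval -0.19 to 0.20). Near the peptidyl transferase centre and in the L1 stalk, Rpl3, Rpl8, Rpl10 and Rpl10a had fold changes of -0.07, -0.02, -0.04 and -0.12, all lower, with a median of -0.055 that was -0.019 without line 19-1. The 7 tested proteins of the exit tunnel had a median of -0.0039 and the 6 of the mRNA channel one of -0.029, with Rps2 lowest, and without line 19-1 both turned positive, to 0.035 and 0.040. Rps27a, whose protein is made as a fusion with ubiquitin, had a fold change of -0.01 in its main row and 0.02 in a second row of that name, of whose reads 4.02% were unique.

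Paralogue pairs allowed members with tissue-limited partners to be checked. The heart and muscle gene Rpl3l had a mean of 10.2 and stayed under the minimum, and the testis genes Rpl10l and Rpl39l and the row Rps4y2 were at 0 reads in all lines. Rpl7l1 (1676), Rpl22l1 (13159), Rpl36al (7836) and Rps27l (1572) were all expressed, with mean normalized counts in parentheses. Rps27l, a p53 target related to Rps27, had 1841, 1467 and 1488 in control and 1525, 1242 and 1867 in PWS lines. The groups overlapped, and the highest and the lowest value were those of the subclones 19-4 and 19-1 (fold change -0.06 ± 0.15 SE). Of 17 tested genes whose human counterparts are mutated in Diamond-Blackfan anaemia, a failure of red-cell production, none was called and the median was -0.019, and 0.045 without line 19-1, with Rpl35 lowest (-0.07) and a barely read Rpl35a row highest (0.95).

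Among 80 proteins of the mammalian cytosolic ribosome, 71 had a member row. Fau and Rack1 carry names outside the rule and had fold changes of -0.07 and -0.02. Rpl35a, Rpl38 and Rpl39 had rows of that name only under the minimum, at means of 28.4, 6.63 and 0.838, and Rpl22, Rps13 and Rps26 were not analysed here under those names. The first row under the minimum, Rpl35a, had 139 normalized counts in line 3 and 3.6 to 9.2 in the other 5 lines, with 4.17% of its reads unique. The first rows above the minimum were Rps10l1 (421), Rpl37 (657) and Rps29 (800), and the highest was Rplp0 (66102), as counts that also grow with transcript length.

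Many ribosomal protein reads matched several places. For 26 of the 84 members (31.0%) the uniquely assigned share lay under 50%, against 16.3% of tested genes, and for 13 under 1%. Pairs of rows with nearly the same reads (within 0.2% in every line) were the 2 rows named Rpl7a, Rps19 with Rps19l2, and Rplp2, Rpl8 and Rps15al4 with rows that bear no ribosomal protein name, so that the 84 rows are not 84 separate measurements. When reads of several genes were left out, 75 members could still be tested, and the fold change moved by a median of 0.0046. It moved by over 0.1 in 6 of them. Rps19 went from -0.06 to -0.39 and its twin Rps19l2 from -0.06 to 0.14, on 0.050% and 0.138% of their reads, and Rplp1 from -0.09 to -0.30 on 46.9%. None of these was called.

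**Figure D4:**
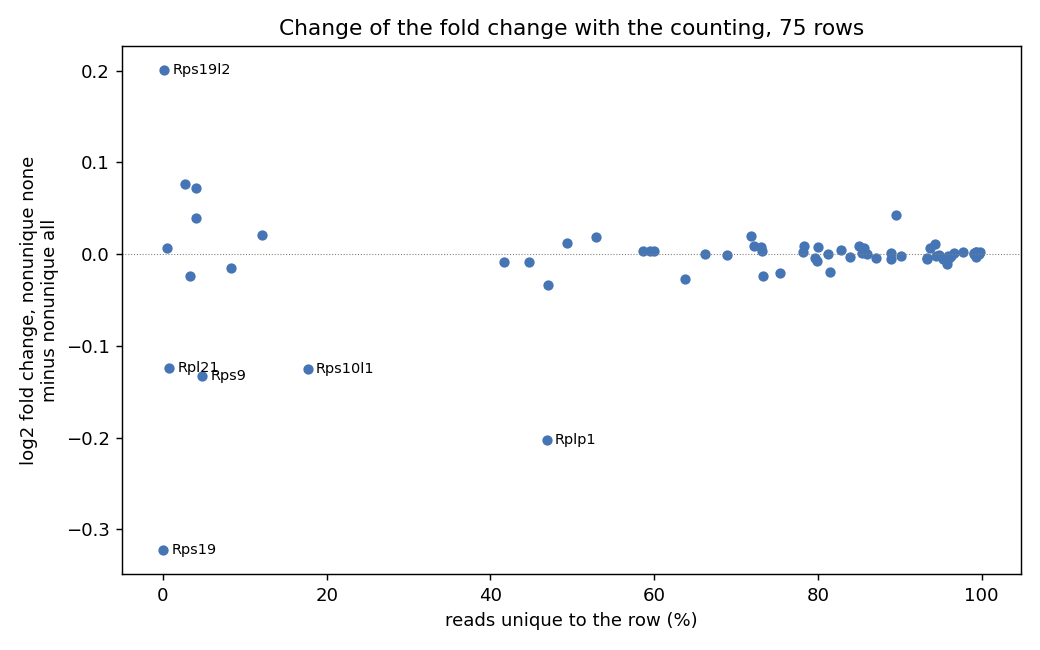
Change of the log2 fold change when reads that match several genes are left out (vertical axis) against the percent of reads unique to the row (horizontal axis), for the 75 members tested in both countings. Rows that move by over 0.1 are named, and all 6 have under 50% unique reads.

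The machinery around the ribosome was read from lists of genes by role, none of which had a call in limma. An unadjusted p under 0.05 was seen for 2 initiation factors, 0 elongation and release factors, 1 assembly factor and 0 genes of RNA polymerase I (5.88%, 0%, 1.18% and 0%, beside 11.3% of tested genes), and edgeR and DESeq2 called none of these either. The 34 tested initiation factors had a median fold change of -0.015. The lowest was Eif6, which keeps the subunits apart (-0.13, and -0.07 without line 19-1). The highest was Eif4g3, a scaffold of the cap complex (0.35, and 0.25 without line 19-1). The 14 elongation and release factors had a median of 0.019, from Eif5a2 (-0.21, and -0.10 without line 2) to Eef2k, the kinase that slows elongation (0.18, but 0.53 without line 2 and -0.02 without line 5-9). The 85 ribosome assembly factors had a median of 0.022, from Gnl2 (-0.18, and -0.04 without line 2) to Ltv1 (0.23, and 0.12 without line 2), and the 19 genes of RNA polymerase I, which makes rRNA, a median of 0.021, from Polr2k (-0.07) to Polr1b (0.12). Without line 19-1 the 4 medians were 0.024, 0.036, 0.074 and 0.074, so that each was higher and that of the initiation factors changed sign.

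Of 19 other genes with TOP mRNAs, 1 was called in DESeq2 only (5.26%, beside 1.46% of tested genes). In limma 1 had an unadjusted p under 0.05 (5.26%, beside 11.3%), and the groups separated for 2 upwards (10.5%, beside 8.43%) and for 1 downwards (5.26%, beside 9.01%). Pabpc1, the poly(A)-binding protein, had 6802, 7415 and 8762 normalized counts in lines 5-9, 2 and 16, and 9171, 11938 and 11149 in lines 3, 19-1 and 19-4. All PWS lines were above all control lines (0.49 ± 0.12 SE, adjusted p = 0.277 in limma and 0.0190 in DESeq2). The list's median was -0.0048, and 0.029 without line 19-1. The 22 tested mTORC1 and TOP regulators had a median of 0.039, 4 of them (18.2%, beside 11.3%) had an unadjusted p under 0.05 in limma, and the groups separated for 4 upwards (18.2%, beside 8.43%) and for 0 downwards. Among them, DESeq2 called Mga, a partner of MAX, at 3932, 3626 and 3942 in control and 4507, 5481 and 5526 in PWS lines (0.43 ± 0.09 SE, adjusted p = 0.250 in limma and 0.00734 in DESeq2). The lowest of this list was Mycn (-0.52, and -0.31 without line 2), read at 23.6 to 56.0. Larp1, the TOP-binding protein, was named after its values were seen: 4148, 4249 and 4122 in control and 4616, 4826 and 5038 in PWS lines, all higher (0.21 ± 0.06 SE, adjusted p = 0.315).

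In the p53 pathway, none of 16 tested genes was called by any of the 3 tools, 3 had an unadjusted p under 0.05 in limma (18.8%, beside 11.3%), and the fold changes ran from -0.29 for Btg2 to 0.51 for Gdf15, with a median of 0.037 that was 0.094 without line 19-1. Gdf15, a secreted stress cytokine, had 235, 140 and 250 normalized counts in control and 295, 271 and 294 in PWS lines, all higher (0.51 ± 0.21 SE, adjusted p = 0.428 in limma), and without line 2, the lowest, the fold change was 0.24. That of Btg2 was -0.08 without line 2. The groups separated for 3 of the 16 genes upwards (18.8%, beside 8.43%) and for 0 downwards. The 76 mitochondrial ribosomal protein genes were lower in PWS for 61, with a median of -0.068. The groups separated for 14 of them in that direction, 18.4% beside 9.01% of tested genes, and for 1 in the other. None of them was called by any of the 3 tools, 3 had an unadjusted p under 0.05 in limma (3.95%), and without line 19-1 their median was -0.026. Mrps33 was highest (0.20, and 0.11 without line 2) and Mrps21l, read at 9.2 to 21.6 counts, lowest (-0.27).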

How the data were processed

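Total RNA depleted of rRNA was sequenced by the authors as stranded 75-base paired ends, trimmed with cutadapt, aligned with STAR 2.7.0e to the Ensembl v98 rat genome and counted with HTSeq 0.11.2, once with reads of several genes given to each ("nonunique all", used here) and once with them left out. RSEM 1.3.1 values were also deposited. The deposited values are read counts divided by DESeq2 size factors, a normalized signal that is not whole, and dividing by the smallest value of each column gave whole reads for 100% of values (tolerance 0.01). These recovered reads gave the depth, which was 17530149 to 23022637 reads per line without shared reads.

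Genes with a mean of at least 5 (15579) were tested with limma 3.58.1 (R 4.3.3; trend, log2(value + 1), Benjamini-Hochberg over all of them, threshold 0.05). edgeR 4.0.16 and DESeq2 1.42.0 were run on recovered reads. On simulated counts of 15579 genes for PWS against control, limma recovered 64.1% of changes of 1 and 89.7% of changes of 2 on the log2 scale, with 14 false calls. Single values were compared by exact permutation. Chromosomes are those of GRCr8, matched by symbol for 79.7% of tested genes, and no coordinates were moved between builds. Motifs were searched in RefSeq promoter windows.

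The members named in the text are those with the highest and lowest fold change, smallest p, highest and lowest mean and unique share, largest move between countings, and those of the lists by role, and of each other list the highest, the lowest and any called. A few single genes are not reported here. The members and lists were chosen with earlier results of these data known. Replicate numbers did not pair the lines (correlations 0.003, 0.047 and 0.005).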

Additional observations from a re-analysis of the deposited data

How the results depend on the processing

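No ribosomal protein gene was called under any alternative run: other pseudocounts, filters, scalings, countings and tests, a threshold of 0.1, each line left out, subclones 19-1 and 19-4 averaged, or the replicate block, which gave 36 calls among all genes, 0 among the members and a member median of -0.023. The number of all genes called was 40, against 9 at a mean of at least 50, 228 in DESeq2, 16 without shared reads and 12 with RSEM, and 33 to 55 with 1 line left out. The count of members whose groups do not overlap was 3, against 6 with 19-1 and 19-4 averaged (2 higher and 4 lower, 2.38% and 4.76%, beside 12.9% and 13.2% of tested genes) and 3 to 16 with 1 line left out. It was 6 without line 2 (all lower, 7.14%, beside 14.6% of tested genes lower), 11 without line 16 (10 lower, 11.9%, beside 14.4%), 16 without line 3 (all lower, 19.0%, beside 15.7%), 13 without line 19-1 (10 higher, 11.9%, beside 12.3%) and 5 without line 19-4 (all lower, 5.95%, beside 13.4%). The median fold change of the members was 0.029 with scaling to total reads, below that of all tested genes on that scale, as in the main run. It was -0.051 to 0.032 with 1 line left out. Chosen after seeing the data, leaving out both line 2 and line 19-4 gave 22 members that do not overlap, all lower. These are 26.2% of the members, beside 21.6% of tested genes lower and 20.7% higher. The median fold change of the members was then -0.075 and the difference in read share -0.141 points (-0.0813 to 0.210 with 1 line left out). The causes were not tested. Of 710 values for the 36 named members, 701 kept their direction or stayed within 1 SD, as did 637 of 680 values for the lists. A change of sign within 1 SD counts as kept here. No member was called in the main run, so that no call could be lost. Log2 fold changes under about 0.2 lie within the median half-width of the 95% intervals, 0.185, and intervals cover the spread between lines only.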
